A study of Mus musculus with 8 samples.

Results

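PU.1 binding sites called in the library titled knockdown Day 12- 4 were compared with those called after 4 days of doxycycline (Dox), in the library titled restoration Day 4. Each deposited list held 1 summit, the position of highest signal, for every peak called from chromatin immunoprecipitation and sequencing (ChIP-seq). The Day 12- 4 list had 9868 sites and the Day 4 list 57424, together 67292 of the 365360 sites in the 7 lists of the series. Sites were taken as shared when the nearest summits of both lists were no more than 100 bp apart. A gene counted as called when a summit lay in the body of a protein-coding gene or within 10 kb of it. The Day 4 list was 5.82 times as long as the Day 12- 4 list. Shared sites, shares near gene ends, some promoter counts, calls in other libraries and gene counts were therefore repeated on equal lists. In these, each library kept its highest scores up to the number of sites in the Day 0 list, the shortest of the series. Summit distances and the scores of named sites and genes refer to full lists. A site without a partner on equal lists could still be shared on full lists.

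The cells of both libraries were AML246, mouse acute myeloid leukaemia cells kept in IMDM medium with 10% FCS and interleukin 3. Dox (0.1 ug/mL) was given from the start of a 24 day course and taken away on day 12, and cells were sorted by flow cytometry before the immunoprecipitation. The title of the Day 12- 4 library reads as knockdown, yet its treatment label gives 12 days of Dox and its sort label viable cells high for Cd11b, so it is called by its title here. The Day 4 library carried the treatment label of 4 days of Dox and came from all viable cells. Title, treatment label and sorted fraction differ between the libraries together, so their parts in any difference cannot be told apart. Among the libraries looked up below, the treatment label is 4 days off Dox for Day 12- 8 and 8 days off Dox for Day 12- 12. The days in these titles and labels differ as well, so both libraries are called by their titles. The labels give neither the genetic construct that Dox controls nor the number of cultures or clones pooled. Binding sites do not report expression, so the identity of the cells and the Cd11b sort were not checked by marker genes.

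There was 1 library per group, hence no replicate error, no test and no p-value for any difference below. Intervals are exact (Clopper-Pearson) 95% binomial intervals and cover counting error only. Scores are the authors' −log10 q-values, ranking peaks within a list, and a higher score in one list than in the other does not measure a change in binding. Sequencing depth was unknown, and a site that was not called may still be bound.

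PU.1, encoded by Spi1, is an ETS-family transcription factor that binds DNA around a GGAA core, most strongly in purine-rich settings such as GAGGAAGT. In myeloid cells it occupies enhancers and promoters of growth factor receptors, integrins and phagocyte genes, often together with C/EBP factors, and its reduction blocks maturation in mouse models of acute myeloid leukaemia. Cd11b, the integrin alpha chain encoded by Itgam, is a surface marker of maturing granulocytes and macrophages.

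Promoter sequences show what the sites in both lists and the sites in one list looked like where sequence could be read. They came from the RefSeq promoter table (build GRCm38.p6, the same coordinates as mm10), and each runs 5′ to 3′ on the gene's strand from 250 bases before the annotated start to 50 after it. Capitals mark GAGGAA on either strand, which reads TTCCTC on the other. The 4 windows that held summits of both lists at the highest ranks belonged to Fgd2, which encodes a guanine nucleotide exchange factor, Pisd, the mitochondrial phosphatidylserine decarboxylase, Gusb, the lysosomal beta-glucuronidase, and Laptm5, a lysosomal membrane protein of blood cells.
Fgd2 (chr17:29360664-29360963, plus strand): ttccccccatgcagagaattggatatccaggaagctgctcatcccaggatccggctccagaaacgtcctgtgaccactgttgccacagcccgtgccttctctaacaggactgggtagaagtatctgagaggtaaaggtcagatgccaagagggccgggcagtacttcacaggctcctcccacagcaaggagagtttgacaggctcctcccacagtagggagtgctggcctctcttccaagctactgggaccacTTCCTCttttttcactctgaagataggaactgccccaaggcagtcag
Pisd (chr5:32746293-32746592, minus strand): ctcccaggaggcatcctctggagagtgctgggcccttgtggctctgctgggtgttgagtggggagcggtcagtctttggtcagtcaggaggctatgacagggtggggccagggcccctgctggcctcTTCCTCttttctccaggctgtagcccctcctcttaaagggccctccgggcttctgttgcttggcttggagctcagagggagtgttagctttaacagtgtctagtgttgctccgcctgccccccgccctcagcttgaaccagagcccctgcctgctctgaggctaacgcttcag
Gusb (chr5:130003000-130003299, minus strand): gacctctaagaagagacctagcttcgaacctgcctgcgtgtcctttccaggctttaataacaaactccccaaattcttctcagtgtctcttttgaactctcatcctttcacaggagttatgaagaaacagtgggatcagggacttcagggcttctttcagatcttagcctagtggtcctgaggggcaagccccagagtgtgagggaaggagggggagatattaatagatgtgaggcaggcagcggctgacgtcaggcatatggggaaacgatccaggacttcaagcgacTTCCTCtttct
Laptm5 (chr4:130913066-130913365, plus strand): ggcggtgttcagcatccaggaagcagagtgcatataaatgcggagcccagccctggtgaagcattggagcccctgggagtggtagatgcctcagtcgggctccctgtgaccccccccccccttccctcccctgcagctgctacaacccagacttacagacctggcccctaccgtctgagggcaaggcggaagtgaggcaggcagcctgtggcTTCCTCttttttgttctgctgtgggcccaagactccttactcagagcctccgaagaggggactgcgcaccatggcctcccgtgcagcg
Each of these 4 windows held 1 marked match. In Fgd2 the Day 12- 4 summit (score 362) lay 2.5 bp from the centre of the match and the Day 4 summit (score 642) 4.5 bp from it. In Pisd the distances were 5.5 bp for the Day 12- 4 summit (score 350) and 8.5 bp for the Day 4 summit (score 581). In Gusb they were 3.5 bp for the Day 12- 4 summit (score 321) and 5.5 bp for the Day 4 summit (score 424). Both summits of Laptm5 lay farther away, 24.5 bp for the Day 12- 4 summit (score 189) and 28.5 bp for the Day 4 summit (score 389). Summits of the 2 lists were 2 to 4 bp apart in these windows.

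The 3 highest-ranked promoter windows called in the Day 12- 4 list alone, with no Day 4 summit within 500 bp, follow. This distance was set after the values were seen, and the nearest Day 4 summits were not far beyond it, at 704 bp for Apbb1ip, 605 bp for Derl2 and 551 bp for Cd82. Apbb1ip encodes an adaptor between Rap1 and integrins, Derl2 a protein of the endoplasmic reticulum degradation pathway, and Cd82 a tetraspanin.
Apbb1ip (chr2:22774077-22774376, plus strand): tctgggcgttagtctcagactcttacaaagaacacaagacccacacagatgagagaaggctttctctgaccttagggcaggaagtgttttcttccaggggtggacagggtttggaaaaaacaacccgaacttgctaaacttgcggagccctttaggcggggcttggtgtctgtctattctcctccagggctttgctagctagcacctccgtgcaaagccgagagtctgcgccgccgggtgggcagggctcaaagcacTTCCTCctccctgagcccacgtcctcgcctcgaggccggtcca
Derl2 (chr11:71019254-71019553, minus strand): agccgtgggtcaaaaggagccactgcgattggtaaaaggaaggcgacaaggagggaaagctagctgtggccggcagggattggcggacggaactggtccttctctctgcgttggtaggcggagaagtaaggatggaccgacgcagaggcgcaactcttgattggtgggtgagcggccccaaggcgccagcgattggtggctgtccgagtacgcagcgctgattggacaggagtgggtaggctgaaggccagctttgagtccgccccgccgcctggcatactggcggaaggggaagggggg
Cd82 (chr2:93462453-93462752, minus strand): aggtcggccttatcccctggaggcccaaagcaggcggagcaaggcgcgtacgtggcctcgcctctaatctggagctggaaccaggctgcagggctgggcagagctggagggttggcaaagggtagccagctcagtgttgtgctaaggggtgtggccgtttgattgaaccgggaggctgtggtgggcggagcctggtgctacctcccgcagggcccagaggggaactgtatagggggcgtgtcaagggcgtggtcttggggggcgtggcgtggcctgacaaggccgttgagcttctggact
The Apbb1ip window had 1 marked match 28.5 bp from its Day 12- 4 summit (score 93.2), and the windows of Derl2 (score 47.9) and Cd82 (score 41.2) had none. The Derl2 window held 5 matches to CCAAT on either strand, the letters of the CCAAT box, and each of the Derl2 and Cd82 windows held 1 GGGCGG, the letters of a GC box. The Derl2 site was also called in the Day 0 and Day 12- 8 lists and the Cd82 site in the Day 12, Day 12- 8 and Day 12- 12 lists.

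The 3 highest-ranked windows called in the Day 4 list alone, chosen with the same distance, belonged to Syk, the tyrosine kinase that acts downstream of Fc receptors and integrins, Gm15448, a predicted gene, and Creb5, which encodes a bZIP transcription factor.
Syk (chr13:52596632-52596931, plus strand): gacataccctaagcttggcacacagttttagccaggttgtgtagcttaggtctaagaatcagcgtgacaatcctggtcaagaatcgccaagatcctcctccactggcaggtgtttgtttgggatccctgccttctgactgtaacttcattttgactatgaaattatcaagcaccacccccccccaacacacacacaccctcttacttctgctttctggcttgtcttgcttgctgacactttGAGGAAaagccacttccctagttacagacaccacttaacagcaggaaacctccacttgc
Gm15448 (chr7:3825711-3826010, minus strand): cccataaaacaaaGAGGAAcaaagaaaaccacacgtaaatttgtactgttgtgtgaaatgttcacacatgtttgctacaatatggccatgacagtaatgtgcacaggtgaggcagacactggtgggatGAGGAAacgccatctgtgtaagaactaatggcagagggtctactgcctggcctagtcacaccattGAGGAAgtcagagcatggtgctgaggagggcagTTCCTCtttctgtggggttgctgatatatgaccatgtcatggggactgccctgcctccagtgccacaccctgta
Creb5 (chr6:53573124-53573423, plus strand): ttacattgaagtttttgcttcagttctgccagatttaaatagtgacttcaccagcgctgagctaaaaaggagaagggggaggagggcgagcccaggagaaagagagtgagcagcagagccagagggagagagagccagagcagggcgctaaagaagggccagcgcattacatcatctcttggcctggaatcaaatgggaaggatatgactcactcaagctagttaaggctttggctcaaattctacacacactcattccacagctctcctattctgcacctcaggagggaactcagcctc
The Syk window had 1 marked match 20.5 bp from its Day 4 summit (score 208), with the nearest Day 12- 4 summit 13822 bp away. The Gm15448 window had 4 marked matches, the nearest 12.5 bp from its Day 4 summit (score 203), and the Creb5 window (score 179) had none. All 3 sites were called again in the Day 8, Day 12 and Day 12- 12 lists, and none in the Day 0 or Day 12- 8 lists.

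Most sites of the Day 12- 4 list were Day 4 sites too, whereas most Day 4 sites had no counterpart. The lists had 6543 pairs of summits in common, which were 66.3% (95% interval 65.4 to 67.2%) of the Day 12- 4 list and 11.4% (11.1 to 11.7%) of the Day 4 list. Sites in one list alone numbered 3325 for Day 12- 4 and 50881 for Day 4. Equal lists had 3885 pairs, 48.3% (47.2 to 49.4%) of each. When the shortened Day 12- 4 list was set against the full Day 4 list, 73.9% of its sites were shared, and the shortened Day 4 list was shared in 51.0% with the full Day 12- 4 list. The lowest score kept was 4.98 in the Day 12- 4 list and 56.2 in the Day 4 list, so the equal lists ended at unlike scores.

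The top sites of each list mostly had a partner somewhere in the full length of the other, but less often in its top, since 45.4% of the 2000 highest sites of each list paired with each other. Of the 1000 highest-scoring Day 12- 4 sites, 96.6% (95.3 to 97.6%) were shared, and the share was smaller in every following block of 1000, with 70.3% in the block after rank 4000 and 24.9% in the last 868 sites. Of the 1000 highest-scoring Day 4 sites, 92.2% (90.4 to 93.8%) were shared, then 74.7%, 60.5% and 50.7% in the next blocks and 20.3% in the block after rank 8000. Shared sites stood high in the Day 4 list, where 4099 of them (62.6%) were in the equal list and 91.5% ranked above the middle of the full list. The median score of a shared site was 13.1 in the Day 12- 4 list and 85.4 in the Day 4 list. The scores of the 6543 pairs ranked only loosely together, with a Spearman coefficient of 0.385 across sites that share both libraries and the 100 bp rule.

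**Figure D1:**
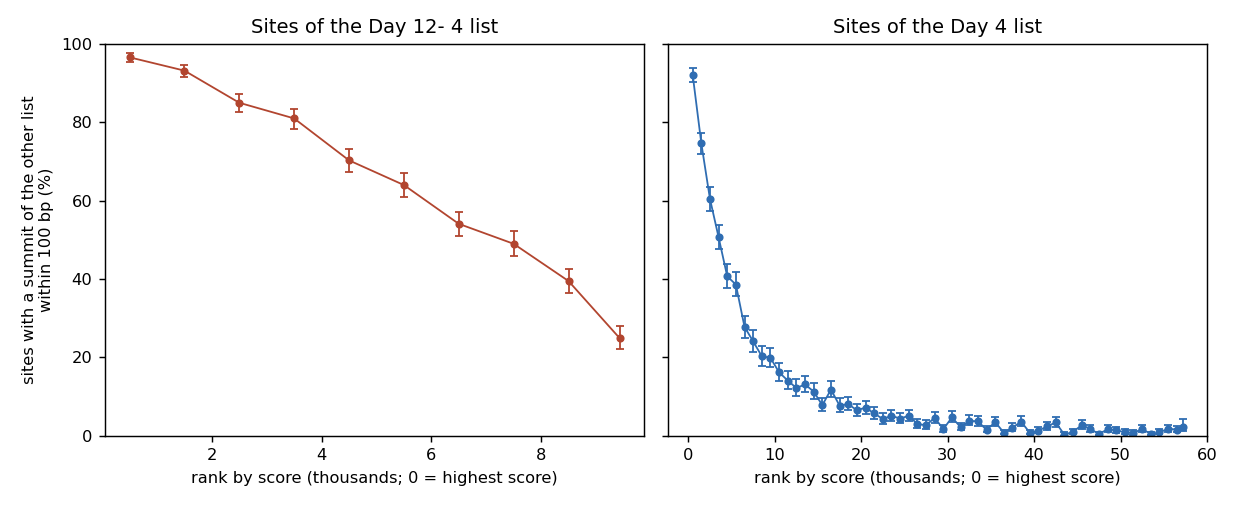
Share of sites with a summit of the other list within 100 bp, in consecutive blocks of 1000 sites ordered by score, for the Day 12- 4 list (left) and the Day 4 list (right). Bars are exact 95% binomial intervals. For Day 12- 4 the first block stands at 96.6% and the last at 24.9%. For Day 4 the first stands at 92.2% and the share comes close to 0 far down the list.

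Shared summits were close together, with a median distance of 21 bp, and 107 of them (1.64%) fell on the same base. The number of Day 12- 4 sites just inside the 100 bp limit was 1334 at 50 to 100 bp, and just outside it 752 at 100 to 200 bp. A further 399 sites had a Day 4 summit at 200 to 500 bp. At greater distances, 1627 Day 12- 4 sites had no Day 4 summit within 2 kb and 696 (7.05%) none within 10 kb. In the Day 4 list, 39709 sites (69.2%) had no Day 12- 4 summit within 10 kb. Unshared sites at the top of the lists differed in this respect, but they were measured against full lists of unlike length. The Day 4 list was 5.82 times as long, and the part of list length in these distances was not tested. Of the 34 unshared sites among the 1000 highest Day 12- 4 scores, 28 had a Day 4 summit within 500 bp and 0 lay beyond 10 kb from one. Of the 78 unshared sites among the 1000 highest Day 4 scores, 12 had a Day 12- 4 summit within 500 bp and 47 lay beyond 10 kb.

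**Figure D2:**
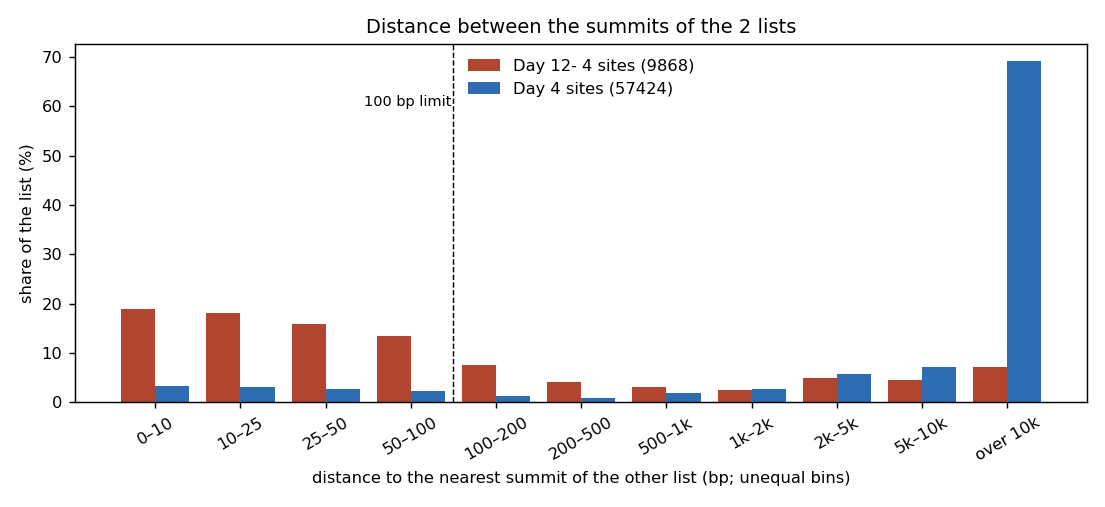
Distance from each summit to the nearest summit of the other list, as a share of the list, for 9868 Day 12- 4 sites (red) and 57424 Day 4 sites (blue). Bins are unequal and the dashed line is the 100 bp limit for sharing. Day 12- 4 sites gather on the left, with 18.9% within 10 bp, and 69.2% of the Day 4 sites lie over 10 kb away.

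The 10 sites that ranked highest in both lists included the highest score of the Day 12- 4 list, 724 inside Tsc22d1 (chromosome 14, position 76506685), which encodes a leucine zipper protein. It scored 692 in the Day 4 list, 10 bp away, and it was called in 4 of the other 5 libraries. The site 42 bp outside Ceacam16, a gene of the carcinoembryonic antigen family, scored 384 in the Day 12- 4 list and 662 in the Day 4 list. The site inside Rasa3, a GTPase-activating protein for Ras and Rap, scored 422 in the Day 12- 4 list and 615 in the Day 4 list. The remaining sites lay in or nearest to Fgd2, Nub1, Tlcd4, Psmg3, Pisd, Rere and Kifbp, with Day 12- 4 scores from 293 to 365 and Day 4 scores from 578 to 711. Distances between the paired summits were 1 to 26 bp over the 10 sites. All 10 were called in the Day 0 list as well, with scores from 61.4 to 416, so these sites were called in untreated cells too.

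The highest-scoring Day 12- 4 sites without a Day 4 partner were mostly displaced neighbours of one. The first was inside Sh3tc1 (chromosome 5, position 35729156, score 333) with a Day 4 summit 116 bp away. The second, 13772 bp outside Clec2d, a C-type lectin gene, scored 195 and lay 168 bp from a Day 4 summit of score 444 that is itself among the 10 highest Day 4 sites without a partner. The site in Lyl1, which encodes a basic helix-loop-helix factor of blood progenitors, scored 152 and lay 318 bp from a Day 4 summit. The other sites, nearest to Enpp3, Pabpc1, Abracl, Apbb1ip, Cela3a, Ccdc149 and Smndc1, scored 74.6 to 163, with Day 4 summits 113 to 704 bp away. Thus 9 of these 10 sites had a Day 4 summit within 500 bp, and the exception was the Apbb1ip promoter shown above.

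Distant Day 12- 4 sites had much lower scores. The 10 highest with no Day 4 summit within 10 kb, chosen after the values were seen, scored 18.6 to 36.9. Of these, 5 lay in or within 49 bp of Nr2c2, which encodes a nuclear receptor, Taok1, a protein kinase, Pias1, a SUMO ligase, Tcf12, a basic helix-loop-helix factor, and Metap1, a methionine aminopeptidase. All 5 were called in the Day 0, Day 8, Day 12, Day 12- 8 and Day 12- 12 lists, so the Day 4 list was the only one of 7 without them. The remaining sites, nearest to Ndst4 (score 36.9), Gm8882 (28.2), Pla2r1, Bcl11a and Enpp7, lay 14.7 to 927 kb outside a gene. None of these was called in all the other lists, and the Gm8882 and Bcl11a sites were called in no other list. Among all Day 12- 4 sites with no Day 4 summit within 2 kb, 6.39% were called in all 5 other libraries and 28.2% in none. At Nr2c2 (chromosome 6, position 92091445) the scores were 78.8 at Day 0, 159 at Day 8, 231 at Day 12, 23.7 in Day 12- 4, 34.2 in Day 12- 8 and, last, 33.4 for Day 12- 12. At Pias1 they were 84.3 at Day 0, 111 at Day 8, 147 at Day 12, 21.0 in Day 12- 4, 45.1 in Day 12- 8 and, last, 43.2 for Day 12- 12. The nearest Day 4 summits were 24624 bp from the Nr2c2 site and 27376 bp from the Pias1 site.

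The highest-scoring Day 4 sites without a Day 12- 4 partner mostly lay farther from the nearest summit of the other list, which was shorter. The first lay 24457 bp outside Syt14, a synaptotagmin gene (chromosome 1, position 193060328), with a score of 522 and the nearest Day 12- 4 summit 113221 bp away. Others were 2189 bp outside Antxr2, an anthrax toxin receptor gene (score 463), inside Cux1, a homeodomain factor gene (450), inside Tnni2, a troponin gene (446), and inside Primpol, a primase-polymerase gene (414). The site 50 bp from Chst15, which encodes a sulfotransferase (391), and the site inside Akap7, which encodes an anchoring protein for protein kinase A (391), followed. Each of these 7 sites was called at Day 8 and Day 12, none at Day 0 or in Day 12- 8, and 3 in Day 12- 12. The Apbb1ip site (452) lay 704 bp from the Day 12- 4 summit at the promoter of the same gene.

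Sites of the Day 12- 4 list lay at gene ends far more often than Day 4 sites. At gene ends, meaning no more than 1 kb from where a protein-coding gene begins or stops, were 2963 Day 12- 4 sites (30.3%, 29.3 to 31.2%), against 6848 Day 4 sites (12.0%, 11.7 to 12.2%). In equal lists the shares were 32.6% (31.5 to 33.6%) for Day 12- 4 and 16.2% (15.4 to 17.0%) for Day 4. Against annotated starts with known strand, outside chromosome 18, 26.8% of Day 12- 4 sites and 9.40% of Day 4 sites lay within 1 kb. Gene bodies held 61.6% of the Day 12- 4 sites and 54.0% of the Day 4 sites, and 19.9% of the Day 12- 4 sites and 28.4% of the Day 4 sites lay over 10 kb outside any gene.

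**Figure D3:**
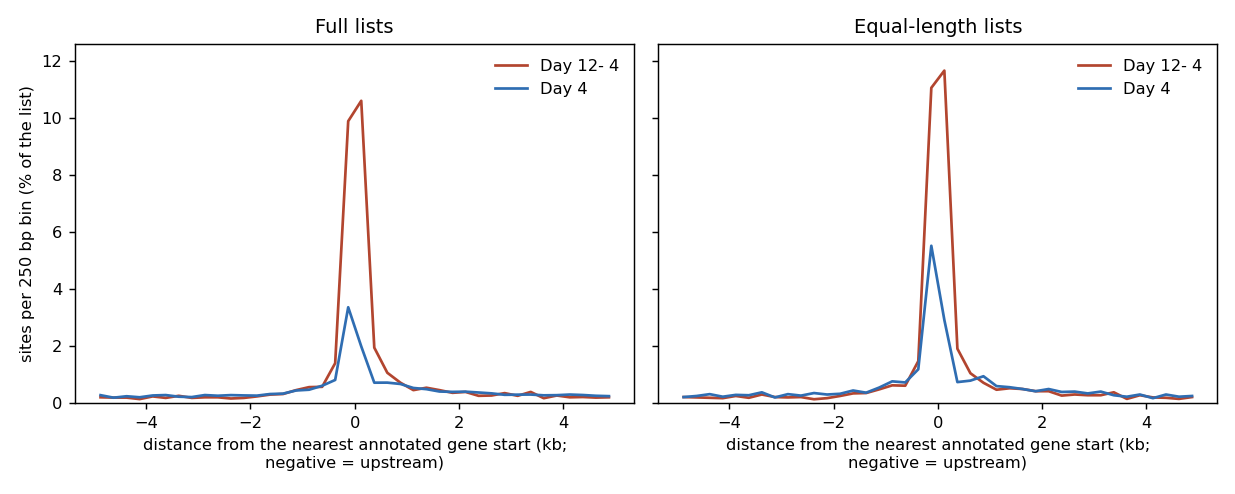
Sites around annotated gene starts in bins of 250 bp, as a share of each list outside chromosome 18, for Day 12- 4 (red) and Day 4 (blue), on full lists (left) and on equal lists (right). In the full lists the bin just after the start holds 10.6% of the Day 12- 4 sites and 1.99% of the Day 4 sites, and beyond about 2 kb the lines run together.

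By class, gene ends held 31.8% (30.2 to 33.4%) of the sites in Day 12- 4 alone, 29.5% (28.4 to 30.6%) of the sites in both lists, measured at the Day 12- 4 summit, and 9.72% (9.46 to 9.98%) of the sites in Day 4 alone. The share in Day 12- 4 alone was 23.9%, below that of both lists, where alone meant no Day 4 summit within 2 kb. The classes stood further apart in equal lists, with 43.8% (42.3 to 45.3%) for Day 12- 4 alone, 20.7% (19.4 to 22.0%) for both lists and 12.2% (11.2 to 13.2%) for Day 4 alone. The order along rank was opposite in the lists. Among shared sites ordered by Day 12- 4 score, the share at gene ends was 47.5% in ranks 1 to 1000, 35.7% from there to rank 4000 and 18.8% in the remainder of the equal list. Among shared sites ordered by Day 4 score, it was 12.7% in ranks 1 to 1000, 19.5% from there to rank 4000, 25.8% in the remainder of the equal list and 51.5% between ranks 20000 and 40000. Day 4 sites without a partner stayed between 8.61% and 13.1% in every rank band.

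Promoter windows added base composition and motif letters that the positions alone do not give. The table held 21238 windows for 17469 genes, 79.8% of the protein-coding genes, none on chromosome 18, and windows of neighbouring or alternative starts can overlap and share a summit. A Day 12- 4 summit fell in 1630 windows (7.67%) and a Day 4 summit in 2841 (13.4%). Windows were put in the class of both lists also when the partner within 100 bp lay just outside, which gave 1452 windows (6.84%) in both lists, 295 (1.39%) in Day 12- 4 alone and 1455 (6.85%) in Day 4 alone. The mean GC content was 64.1% in Day 12- 4 alone, 61.2% in both lists, 54.8% in Day 4 alone and 55.8% in the windows without a summit of either list.

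The strong PU.1 letters GAGGAAGT, searched on both strands and containing GAGGAA, were most frequent in windows of both lists. On full lists they occurred in 5.08% (2.87 to 8.25%) of the windows in Day 12- 4 alone and 6.80% (5.56 to 8.22%) of those in Day 4 alone. The share was 14.5% (12.7 to 16.4%) in windows of both lists and 3.13% in all windows. In equal lists a Day 12- 4 summit fell in 7.03% of all windows and a Day 4 summit in 3.07%. There GAGGAAGT was held by 6.35% of the 1008 windows in Day 12- 4 alone (4.75% of all windows), 26.8% of the 527 in both lists (2.48%) and 19.2% of the 146 in Day 4 alone (0.687%). On full lists the GC box letters GGGCGG were found in 79.3% (74.2 to 83.8%) of the windows in Day 12- 4 alone and 46.7% (44.1 to 49.3%) of those in Day 4 alone. The share was 68.5% (66.1 to 70.9%) in windows of both lists and 46.2% in all windows. The letters CCGGAAGT are bound by ETS factors of other subfamilies such as GABPA. They were found in 17.3% of the windows in Day 12- 4 alone, 19.0% in both lists, 12.8% in Day 4 alone and 5.15% of all windows. CCAAT occurred in 36.9% of the windows in Day 12- 4 alone, 37.7% in both lists, 43.5% in Day 4 alone and 38.2% of all windows. GGGCGG and GC content go together by construction, and the part of GC content in these shares was not tested.

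Where a window of both lists held GAGGAAGT, the summits sat near it. The median distance from the summit to the centre of the nearest match was 23 bp over 198 windows with a Day 12- 4 summit and 8 bp over 206 windows with a Day 4 summit. Within 25 bp were 54.0% of the Day 12- 4 summits and 75.7% of the Day 4 summits. For GGGCGG the medians were 35.5 bp for Day 12- 4 and 40.5 bp for Day 4. By these medians the PU.1 letters lay closer to the Day 4 summits, and the GC box letters lay slightly closer to the Day 12- 4 summits.

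Calls in the 5 libraries that were not used to class the sites separated the classes. Of the sites in Day 12- 4 alone, 7.10% were called at Day 0, 23.2% at Day 8, 45.0% at Day 12, while Day 12- 8 called 37.5% and Day 12- 12 called 48.8%. Sites in both lists recurred more, with 20.1% called at Day 0, 93.0% at Day 8, 85.9% at Day 12 and 79.7% in Day 12- 12, except that Day 12- 8 called 29.4% of them. Of the sites in Day 4 alone, 0.177% were called at Day 0, 36.8% at Day 8, 28.4% at Day 12, while Day 12- 8 called 0.763% and Day 12- 12 called 20.5%. The lists that were looked up differ in length, and Day 12- 12 alone had 148415 sites, so shares are best compared between classes within a library.

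On equal lists the Day 12- 8 and Day 0 libraries called sites in Day 12- 4 alone more often than sites in Day 4 alone. Day 12- 8 called 51.6% (50.1 to 53.1%) of the sites in Day 12- 4 alone and 0.457% (0.275 to 0.713%) of those in Day 4 alone, which were 2146 and 19 sites among 4158 of each class. Day 0 called 17.0% (15.8 to 18.1%) of the sites in Day 12- 4 alone and 0.649% (0.428 to 0.943%) of those in Day 4 alone. At Day 8 the order was the other way, with 59.6% (58.1 to 61.1%) in Day 12- 4 alone and 93.4% (92.6 to 94.1%) in Day 4 alone. At Day 12 it was also the other way on equal lists, with 68.1% (66.7 to 69.5%) in Day 12- 4 alone and 78.6% (77.3 to 79.8%) in Day 4 alone, unlike on full lists. Day 12- 12 called 68.7% of the sites in Day 12- 4 alone and 40.4% of those in Day 4 alone. All 5 other libraries called 603 of the 4158 sites in Day 12- 4 alone and 0 of the 4158 sites in Day 4 alone. On full lists all 5 called 169 sites (5.08%) of Day 12- 4 alone and 36 sites (0.0708%) of Day 4 alone. In the full lists, 902 sites (27.1%) of Day 12- 4 alone and 25892 sites (50.9%) of Day 4 alone were called in no other library.

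**Figure D4:**
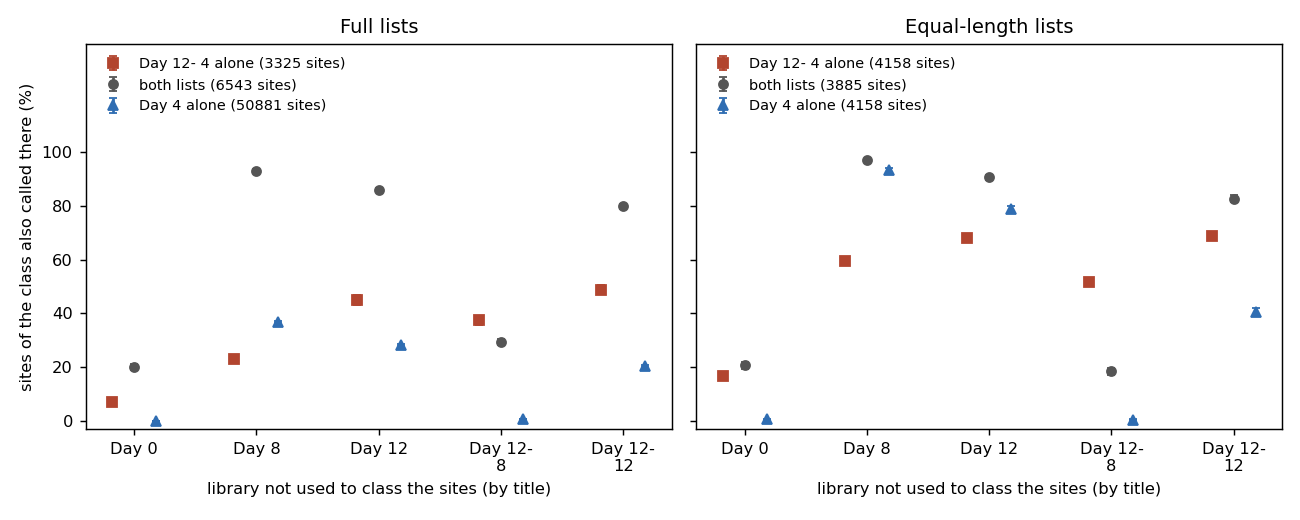
Share of sites in Day 12- 4 alone (red squares), in both lists (grey circles, at the Day 12- 4 summit) and in Day 4 alone (blue triangles) that were also called within 100 bp in each of the other 5 libraries, for full lists (left) and equal lists (right), with exact 95% intervals. Sites in Day 4 alone are near 0% in Day 0 and Day 12- 8 in both panels, where sites in Day 12- 4 alone reach 51.6% for Day 12- 8 on the right. Alone on the right means no partner in the other equal list.

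The link with Day 12- 8 was also seen near the top of the Day 12- 4 list. Between ranks 1000 and 4000, the 408 sites without a Day 4 partner were at gene ends in 58.4% and called in Day 12- 8 in 70.8%, whereas the 2592 shared sites of these ranks were at gene ends in 35.7% and called in Day 12- 8 in 38.4%. Equal lists of Day 12- 4 and the other libraries were compared as well, and Day 12- 4 shared 18.8% of its sites with Day 0, 56.7% with Day 8, 49.2% with Day 12, 29.7% with Day 12- 8 and 53.4% with Day 12- 12. The Day 4 list shared 9.88% with Day 0, 64.4% with Day 8, 35.2% with Day 12, 6.71% with Day 12- 8 and 40.0% with Day 12- 12.

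Genes called in Day 12- 4 were nearly all called at Day 4 too. Of 21887 protein-coding genes, 7625 (34.8%) had a Day 12- 4 site and 15267 (69.8%) a Day 4 site, with 7427 (33.9%) in both lists, 198 (0.905%) in Day 12- 4 alone and 7840 (35.8%) in Day 4 alone. The genes in both were 97.4% of the Day 12- 4 genes and 48.6% of the Day 4 genes, and 74.9% of them held a shared site. With equal lists, 6783 genes (31%) had a Day 12- 4 site and 5578 (25.5%) a Day 4 site. Of these, 4087 (18.7%) were in both, 2696 (12.3%) in Day 12- 4 alone and 1491 (6.81%) in Day 4 alone. Long genes take up more sites, and the median length was 11.2 kb for genes in Day 12- 4 alone, 21.7 kb for both, 23.5 kb for Day 4 alone and 6.74 kb for neither.

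The 198 genes in Day 12- 4 alone had modest scores, the 10 highest between 13.7 and 21.0. They were Dnaaf2, an assembly factor of ciliary dynein, Slc7a6os and its neighbour Prmt7, an arginine methyltransferase gene, which share 1 site, Selenoo, Rsph3b, Mrpl39, a mitochondrial ribosomal protein gene, Mier1, Pole2, a subunit of DNA polymerase epsilon, Fancf of the Fanconi anaemia complex, and Zfp786, a zinc finger gene. For 9 of the 10 genes, all but Mrpl39, the Day 0 list also had a site within 10 kb. Among all 198 genes, 45.5% had a Day 0 site, 48.0% a Day 8 site and 83.3% a Day 12- 8 site. More still had a Day 12 site (95.5%) or a Day 12- 12 site (98.0%). Of the 7427 genes in both lists, 55.1% had a Day 0 site, 97.1% a Day 8 site and 88.6% a Day 12- 8 site. Among the 7840 genes in Day 4 alone these shares were 37.1% for Day 0, 70.9% for Day 8 and 64.6% for Day 12- 8. They were 88.4% for Day 12 and 88.6% for Day 12- 12.

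The 10 highest genes in Day 4 alone scored 274 to 446. They were Syt8 and Tnni2, which share the site of score 446, Chst15, Akap7, Orai1, the pore subunit of store-operated calcium channels, and its neighbour Morn3 (368 for the site they share), Rcsd1 (300), Plekhm3 (297), Gm38499 (290) and Cbl, a ubiquitin ligase that limits tyrosine kinase signalling (274). Rcsd1 had 16 Day 4 sites and no Day 12- 4 site. Gse1 had the most sites in both lists, 20 in Day 12- 4 and 52 in Day 4, of which 13 were shared. Pxn, which encodes the focal adhesion protein paxillin, had 11 Day 12- 4 sites and 19 Day 4 sites, and Cdh23, a cadherin gene, had 10 Day 12- 4 sites and 50 Day 4 sites.

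Spi1 itself (chromosome 2, 91082374 to 91115759) had 4 Day 12- 4 sites, all 4 shared, and 9 Day 4 sites. Its highest site lay 0.72 kb inside the gene, at position 91083094 in the Day 12- 4 list (score 219) and 91083096 in the Day 4 list (score 304). The next, inside the gene, had scores of 17.8 in the Day 12- 4 list and 53.3 in the Day 4 list. A site 1.06 kb outside the gene at the Day 4 summit scored 6.72 in the Day 12- 4 list and 117 in the Day 4 list. The order of these sites by score thus differed between the lists, except for the first. Itgam, which encodes Cd11b (chromosome 7, 128062640 to 128118491), had 1 Day 12- 4 site, at position 128065801 with a score of 9.10, and 8 Day 4 sites, of which the highest (86.2) lay 34 bp from it. On full lists the library with the Cd11b-high sort label thus had fewer called sites at the Cd11b gene, in a list that was shorter as a whole. On equal lists Itgam had 1 site in each library. Csf1r, the receptor for macrophage colony-stimulating factor (chromosome 18, 61105572 to 61131139), had 1 Day 12- 4 site (13.5) and 6 Day 4 sites. Its highest Day 4 site (118) lay 2810 bp from the Day 12- 4 summit, where the Day 4 list had a site of only 4.80. Cebpa, the gene of C/EBPα, had 0 Day 12- 4 sites and 4 Day 4 sites, the highest of score 32.5, and missing calls in the shorter list leave its binding there undetermined.

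Lists of named genes were counted against the share of all protein-coding genes given above. The value given for a gene is the highest score in its window in each list, which need not be the same site. Besides genes marked so below, the highest sites of Il6ra, Ncf4, Ikzf1, Mki67, Vpreb1, Igll1 and Klf1 differed between the lists. Genes named with no Day 12- 4 site refer to full lists. Several of them, such as Csf3r, Mmp8 and Ebf1, had a site in neither equal list. Over the 255 matched genes of 14 lists, 137 had a Day 12- 4 site and 220 a Day 4 site, with 135 in both, 2 in Day 12- 4 alone and 85 in Day 4 alone. The 2 were Ccne2, the gene of cyclin E2, with a score of 10.4, and Acta1, skeletal muscle actin, with 10.3. With equal lists, 128 genes had a Day 12- 4 site and 109 a Day 4 site, and 41 were in Day 12- 4 alone and 22 in Day 4 alone.

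**Figure D5:**
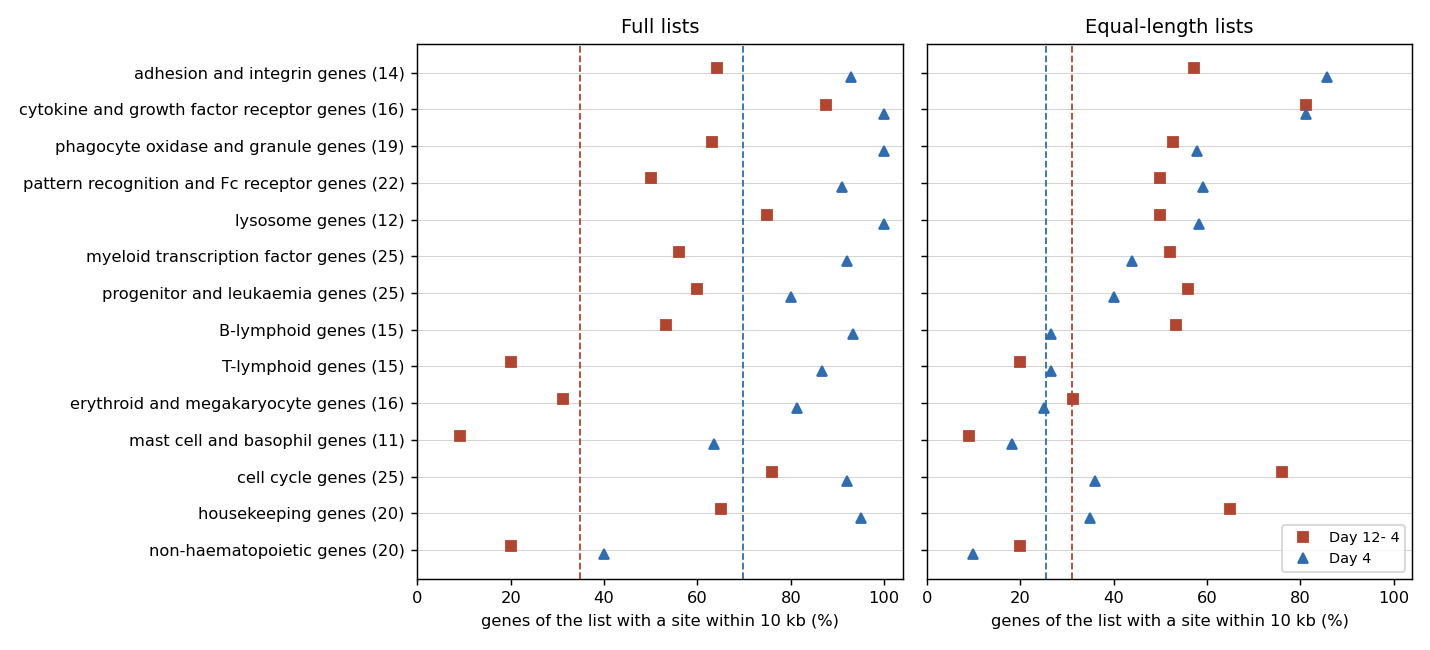
Share of the genes in each list that had a site within 10 kb, in Day 12- 4 (red squares) and Day 4 (blue triangles), on full lists (left) and equal lists (right), with list sizes in brackets. Dashed lines are the shares of all protein-coding genes, 34.8% for Day 12- 4 and 69.8% for Day 4 on the left, 31% for Day 12- 4 and 25.5% for Day 4 on the right. On the right, cell cycle and housekeeping genes lie far apart, with 76.0% and 65.0% in Day 12- 4 against 36.0% and 35.0% in Day 4, while adhesion genes lie the other way.

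Among receptors, 14 of 16 cytokine and growth factor receptor genes had a Day 12- 4 site and 16 a Day 4 site. With equal lists 13 had a Day 12- 4 site and 13 a Day 4 site. Il17ra, the interleukin 17 receptor gene, scored 114 in Day 12- 4 and 511 in Day 4, and Csf2ra, the GM-CSF receptor alpha gene, 93.5 in Day 12- 4 and 145 in Day 4, each at summits 12 bp or less apart. Il6ra (40.8 in Day 12- 4 and 199 in Day 4) and Tnfrsf1b (27.1 in Day 12- 4 and 245 in Day 4) followed. Il1r2, a decoy receptor gene of interleukin 1, and Csf3r, the G-CSF receptor gene of granulocytes, had no Day 12- 4 site and Day 4 scores of 85.5 and 23.6. The highest Csf3r site lay nearest to another gene, Mrps15.

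Adhesion and integrin genes had a Day 12- 4 site in 9 of 14 and a Day 4 site in 13. Equal lists gave 8 in Day 12- 4 and 12 in Day 4, with 4 genes in Day 4 alone and 0 in Day 12- 4 alone. Itgb7, an integrin beta chain gene, scored 142 in Day 12- 4 and 358 in Day 4 on the same base. Itgb2, the partner chain of Cd11b, had 4 Day 12- 4 sites (highest 20.03) and 14 Day 4 sites (highest 284), and all 4 were shared. Tln1, which encodes the integrin activator talin, scored 52.7 in Day 12- 4 and 238 in Day 4 at different summits. Selplg had scores of 20.1 in Day 12- 4 and 278 in Day 4 for a site nearest to Coro1c. Itgax, the Cd11c gene, and Pecam1 had no Day 12- 4 site, and Day 4 scores of 228 and 189.

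Pattern recognition and Fc receptor genes had a Day 12- 4 site in 11 of 22 and a Day 4 site in 20, and in equal lists in 11 for Day 12- 4 and 13 for Day 4. Myd88, the adaptor of Toll-like receptors, scored 62.3 in Day 12- 4 and 361 in Day 4. Fcer1g, the signalling chain of Fc receptors, scored 44.5 in Day 12- 4 and 105 in Day 4, and the inhibitory receptor gene Fcgr2b 29.2 in Day 12- 4 and 257 in Day 4. The highest sites in the window of Tyrobp (32.0 in Day 12- 4 and 209 in Day 4) lay nearest to Nfkbid and Hcst. Tlr6 and Tlr2, Toll-like receptor genes, had no Day 12- 4 site and Day 4 scores of 257 and 130.

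Phagocyte oxidase and granule genes had a Day 12- 4 site in 12 of 19 and a Day 4 site in all 19, and in equal lists in 10 for Day 12- 4 and 11 for Day 4. The oxidase subunit gene Cyba scored 141 in Day 12- 4 and 513 in Day 4, and Ncf4 56.8 in Day 12- 4 and 397 in Day 4. Rac2, the GTPase of the oxidase, scored 63.5 in Day 12- 4 and 239 in Day 4. Mmp9 and Mmp8, granule metalloproteinase genes, had no Day 12- 4 site and Day 4 scores of 68.2 and 48.8. Lysosome genes had a Day 12- 4 site in 9 of 12 and a Day 4 site in 12, led by Laptm5 (189 in Day 12- 4 and 389 in Day 4). Ctsb, the cathepsin B gene, scored 16.7 in Day 12- 4 and 115 in Day 4. In the window of Cd68, a macrophage marker, the highest Day 12- 4 site (29.4) lay nearest to Eif4a1 and the highest Day 4 site (147) inside Cd68. Lamp2 and Ctsz had no Day 12- 4 site and Day 4 scores of 33.7 and 31.2.

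Myeloid transcription factor genes had a Day 12- 4 site in 14 of 25 and a Day 4 site in 23, but in equal lists in 13 for Day 12- 4 and 11 for Day 4. The AP-1 genes Fosb (153 in Day 12- 4 and 441 in Day 4) and Junb (65.8 in Day 12- 4 and 113 in Day 4) followed Spi1, then Egr1, an early response factor of the macrophage lineage (57.1 in Day 12- 4 and 367 in Day 4). Cebpd and Klf2 had no Day 12- 4 site and Day 4 scores of 196 and 165. Progenitor and leukaemia genes had a Day 12- 4 site in 15 of 25 and a Day 4 site in 20, and in equal lists in 14 for Day 12- 4 and 10 for Day 4, with 4 in Day 12- 4 alone and 0 in Day 4 alone. Besides Lyl1 (152 in Day 12- 4 and 208 in Day 4, at different sites), Ikzf1, the Ikaros gene, had 5 Day 12- 4 sites and 13 Day 4 sites, with all 5 shared and highest scores of 78.9 in Day 12- 4 and 448 in Day 4. The survival gene Mcl1 scored 72.8 in Day 12- 4 and 178 in Day 4, and Etv6, an ETS repressor gene, 66.3 in Day 12- 4 and 261 in Day 4. These were again different sites, and at the Day 12- 4 sites the Day 4 scores were 69.9 for Mcl1 and 33.2 for Etv6. Ikzf2 and Pbx3 had no Day 12- 4 site and Day 4 scores of 46.6 and 26.2.

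Cell cycle and housekeeping genes gave the widest gap between the equal lists. Cell cycle genes had a Day 12- 4 site in 19 of 25 (76.0%) and a Day 4 site in 23 (92.0%), but in equal lists in 19 for Day 12- 4 and 9 for Day 4, with 11 in Day 12- 4 alone and 1 in Day 4 alone. Mki67, the Ki-67 proliferation marker, scored 83.8 in Day 12- 4 and 46.1 in Day 4, a larger number in Day 12- 4, as for Vpreb1 below. E2f2 scored 62.9 in Day 12- 4 and 77.3 in Day 4, Mcm5 of the replicative helicase 58.0 in Day 12- 4 and 439 in Day 4, and Cdk2 41.6 in Day 12- 4 and 47.4 in Day 4. Cdk4 and Ccne1 had no Day 12- 4 site and Day 4 scores of 86.5 and 28.8. Housekeeping genes had a Day 12- 4 site in 13 of 20 and a Day 4 site in 19, and in equal lists in 13 for Day 12- 4 and 7 for Day 4. Gusb scored 321 in Day 12- 4 and 424 in Day 4, Actb 93.9 in Day 12- 4 and 424 in Day 4, and Eef1a1 56.6 in Day 12- 4 and 78.4 in Day 4. B2m and Ldha had no Day 12- 4 site and Day 4 scores of 65.1 and 32.7.

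Among lists of other blood lineages, the T-lymphoid (3 of 15 genes) and mast cell lists (9.09%) lay below the Day 12- 4 share of all genes (34.8%), the B-lymphoid list (53.3%) above it, and the erythroid and megakaryocyte list (31.2%) near it. B-lymphoid genes had a Day 12- 4 site in 8 of 15 and a Day 4 site in 14, and in equal lists in 8 for Day 12- 4 and 4 for Day 4. Btk, a tyrosine kinase gene that myeloid cells also use, scored 63.8 in Day 12- 4 and 222 in Day 4 at a site nearest to Rpl36a. Vpreb1 and Igll1 of the surrogate light chain shared 1 Day 12- 4 site (13.2) nearest to Top3b, with highest Day 4 scores of 8.36 and 33.9. Cd79a scored 11.9 in Day 12- 4 and 92.8 in Day 4 at different sites, and Ebf1 and Cd22 had no Day 12- 4 site and Day 4 scores of 33.8 and 32.5. T-lymphoid genes had a Day 12- 4 site in 3 of 15 and a Day 4 site in 13. Gata3 scored 12.6 in Day 12- 4 and 16.0 in Day 4, and Cd3d and Cd3g shared a site of 8.53 in Day 12- 4 and 75.9 in Day 4. Cd5 and Cd28 had no Day 12- 4 site and Day 4 scores of 136 and 59.2.

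Erythroid and megakaryocyte genes had a Day 12- 4 site in 5 of 16 and a Day 4 site in 13, led by Vwf, the von Willebrand factor gene (80.6 in Day 12- 4 and 140 in Day 4), and Itga2b, a platelet integrin gene (28.1 in Day 12- 4 and 227 in Day 4). The windows of Gp9 (20.03 in Day 12- 4 and 120 in Day 4) and Klf1 (11.2 in Day 12- 4 and 46.8 in Day 4) had their highest sites nearest to other genes. Epor had no Day 12- 4 site and a Day 4 score of 129. Mast cell and basophil genes had a Day 12- 4 site in 1 of 11, Hdc of histamine synthesis (5.02 in Day 12- 4 and 75.9 in Day 4), and a Day 4 site in 7, among them Il4 (98.9) and Tpsb2 (13.4). Non-haematopoietic genes had a Day 12- 4 site in 4 of 20 and a Day 4 site in 8. They included Apoa1 (21.6 in Day 12- 4 and 80.8 in Day 4), Krt5 (18.9 in Day 12- 4 and 143 in Day 4) and Ckm (5.001 in Day 12- 4 and 9.51 in Day 4), with Cdh1 and Umod in Day 4 alone (27.9 and 17.8).

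Sites were unevenly spread over chromosomes. Chromosome 4 held 11.1% (10.5 to 11.7%) of the Day 12- 4 sites and 7.02% (6.82 to 7.24%) of the Day 4 sites. On chromosome 4, 526 of 1095 Day 12- 4 sites (48.0%) had no Day 4 partner, beside 26.7% on chromosome 1. On chromosome 5 the share without a partner was 43.2% of 954 Day 12- 4 sites. Day 4 sites without a partner made up 85.9% of its sites on chromosome 4 and 89.7% on chromosome 1. Unplaced scaffolds, which were left out of all gene comparisons, held 0.740% of the Day 12- 4 sites and 0.240% of the Day 4 sites.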

How the data were processed

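Each of the 7 deposited files held 1 peak summit per line. Peaks were called with MACS2 and placed on mm10, per the submitters' processing notes. The authors' deposited score was read as a −log10 q-value, since the lowest in all files, 1.30104, matches a q limit of 0.05 (1.30103). Not given in the sources used here were the aligner, MACS2 version, control library, filters, pooling and depth. The sample labelled 12 days off Dox was not analysed here.

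Summits were paired by nearest distance (Python 3.11.15, numpy 2.4.6, pandas 2.3.3, scipy 1.17.1; plots with matplotlib 3.10.9). Overlap and gene assignment were tested on simulated positions. Genes came from the RefSeq table of GRCm38.p6 (21887 protein-coding genes), starts and sequences from the RefSeq promoter table of the same build. No genome was used, so sequence outside promoter windows was not analysed here. A gene's score is that of its highest site in the window, which can lie nearer to another gene.

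The compared libraries, the 14 gene lists (255 of 256 genes matched) and the rules for naming were chosen with earlier results of these data known. Named sites were the 10 highest shared sites by worse rank and the 10 highest of each list alone. Named genes were Spi1, Itgam, Csf1r and Cebpa. In each gene list the 4 highest in Day 12- 4, the 2 highest in Day 4 alone and every gene in Day 12- 4 alone were added. Over all genes the 10 highest in each list alone and the 5 with most sites per list were taken. Some genes that these rules name are not reported here. Alternatives varied the distance, score minimum, list length, gene window and gene-end distance.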

Additional observations from a re-analysis of the deposited data

How the results depend on the processing

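Most values moved with the settings below, and several contrasts turned on equal lists. Of the Day 12- 4 sites, 52.8% were shared at 50 bp, 73.9% at 200 bp and 78.0% at 500 bp, against 9.07%, 12.7% and 13.5% of the Day 4 sites. With a minimum score of 5, 10 or 20 in both lists the shares were 73.3%, 83.0% and 87.6% of Day 12- 4 and 11.8%, 11.8% and 10.8% of Day 4. Both shares were 48.3% on equal lists and on the 4000 highest scores and 45.4% on the 2000 highest. With the Day 4 list shortened to the length of the Day 12- 4 list, chosen after seeing the data, 45.3% of Day 12- 4 sites were shared. Assembled chromosomes alone gave shares inside the intervals printed in the report.

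Genes in both lists numbered 4011 with the gene body alone, 4532 with a minimum score of 10 and 4087 on equal lists. Genes in Day 12- 4 alone numbered 511 with the body alone, 129 with 25 kb and 2696 on equal lists, where Day 4 alone had 1491, the smaller count, against 7840 on full lists. The count of genes in Day 12- 4 alone thus rests on the window and list length. Taking the nearest gene at any distance, or 5 kb, kept each count within 1.5 times the reported one.

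Sites near gene ends made up 25.3% of the Day 12- 4 list, 8.20% of the Day 4 list, 25.1% of sites in both, 25.7% of Day 12- 4 alone and 6.05% of Day 4 alone at 500 bp. At 2 kb the shares were 36.8%, 17.6%, 35.4%, 39.5% and 15.3% in that order. On equal lists they were 32.6%, 16.2%, 20.7%, 43.8% and 12.2%. For annotated starts, chosen after seeing the data, they were 26.8%, 9.40%, 26.7%, 26.9% and 7.17%. With sites alone defined by no partner within 2 kb, also chosen after seeing the data, the share was 23.9% for Day 12- 4 and 8.19% for Day 4, so Day 12- 4 alone then stood below the sites in both lists. The order of these classes on full lists depends on that distance.

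With the gene body alone, Day 12- 4 counts moved to 4 oxidase and granule genes, 6 pattern recognition and Fc receptor genes, 7 myeloid factor genes, 1 B-lymphoid, 2 erythroid and megakaryocyte, 11 cell cycle, 6 housekeeping and 2 non-haematopoietic genes. Day 4 counts moved to 12 pattern recognition and Fc receptor, 14 myeloid factor, 7 erythroid and megakaryocyte, 3 mast cell, 15 cell cycle and 5 non-haematopoietic genes. On equal lists, Day 4 counts moved to 11 oxidase and granule, 13 pattern recognition, 7 lysosome, 11 myeloid factor, 10 progenitor, 4 B-lymphoid, 4 T-lymphoid, 4 erythroid, 2 mast cell, 9 cell cycle, 7 housekeeping and 2 non-haematopoietic genes. Myeloid factor, progenitor, B-lymphoid, erythroid, cell cycle, housekeeping and non-haematopoietic genes then had fewer members with a site in Day 4 than in Day 12- 4, the opposite of full lists. The other 30 counts stayed within 1.5 times.

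No paired analysis was possible because each group had 1 library and the labels give no replicate numbers. For the same reason no library could be left out of a group. Depth was unknown, so a missing call, above all in the shorter Day 12- 4 list, may lie below detection, and list length cannot be told apart from the amount of binding.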
